A study of Mus musculus with 2 samples.

Results

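The genes that give a neuron its fast transmitter were followed in the hindbrain of newborn mice: 10 genes for the enzymes and transporters that make or package glutamate, GABA, glycine and acetylcholine. They were picked by gene symbol, after the Ensembl identifiers of the gene tables had been matched to symbols, and all 10 were found among 43346 mouse genes listed. The rule uses no measured value. The samples are 2 libraries of strain B6NCrl at postnatal day 0, 1 hindbrain each, labelled pup 1 (replicate 1) and pup 3 (replicate 2). No treatment or altered allele is named, sex was not collected, and both pups carry the same donor record. Each library started from 13 pg of RNA above 200 nt, an amount labelled as 1 cell-equivalent, so all cell types of the tissue are mixed at a very small input. The design holds 1 group, so no test between groups exists, and with 1 library per pup a difference between the pups has no replicate check.

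A nerve cell releases the transmitter that its vesicular transporter loads. Slc17a6, Slc17a7 and Slc17a8 encode the vesicular glutamate transporters VGLUT2, VGLUT1 and VGLUT3. Gad1 and Gad2 encode the glutamate decarboxylases GAD67 and GAD65, which make GABA, and Slc32a1 encodes VGAT, the carrier that loads both GABA and glycine into vesicles. Slc6a5 encodes GlyT2, the plasma membrane transporter that supplies glycinergic terminals. Chat makes acetylcholine, Slc18a3 encodes its vesicular transporter VAChT, and Slc5a7 takes up the choline that its synthesis needs. In the brainstem, VGLUT2 and the glycine transporter mark widespread excitatory and inhibitory neurons, and the cholinergic genes mark the motor nuclei of the cranial nerves.

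The libraries held 35462381 expected counts in pup 1 and 29866728 in pup 3. Expected counts are estimates in which a read shared by several transcripts is split. TPM divides counts by transcript length and sets every library to the same total, here over 43309 nuclear genes, and n is 2 for each mean ± SD. Detected means 5 or more expected counts. Intervals of counts are exact 95% Poisson intervals for counting error alone, because copies made by amplification do not count molecules. A fold written as at least, against 0 counts, takes 3 counts as the floor. It bounds the sequenced counts and not the RNA of the tissue. In these pieces of tissue, fewer cells of a type and less RNA per cell cannot be told apart. Marker genes in small lists were set beside the tissue label. Of the hindbrain Hox genes 6 of 11 were detected in both pups, against 0 of 12 spinal cord Hox genes and 2 of 11 forebrain genes. Among pan-neuronal genes 10 of 10 were, beside 37.8% of all protein-coding genes. The 2 forebrain genes were Neurod6, at 18.6 and 49.4 TPM in pup 1 and pup 3, and Otx1, at 7.92 and 9.67 TPM.

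Related members differ enough in sequence to be counted apart. The longest run of identical bases between the coding sequences of 2 vesicular glutamate transporters, or of the 2 decarboxylases, was shorter than the 100 bases that the tables imply as the fragment length. The runs are shown because they are the longest stretches in which the genes of a pair read alike, so that a fragment across them still holds bases that differ.
Slc17a6 and Slc17a7: aacctgggcgtggccatcgtg
Slc17a6 and Slc17a8: tcatgagcggcctcggcttctgcat
Slc17a7 and Slc17a8: ggttcctatgctggggc
Gad1 and Gad2: cctcacaagatgatggg
These runs of 21, 25, 17 and 17 bases are read 5′ to 3′ from GENCODE M21 transcripts. Gad1 also shares a run of 107 bases with its pseudogene Gad1-ps, which had 2 counts in each pup.

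Of the 10 genes, 5 were detected in both pups: Slc17a6, Gad1, Gad2, Slc6a5 and Slc5a7. Among all 21461 protein-coding genes the share detected in both was 37.8%. Slc17a8, Slc32a1 and Slc18a3 were detected in pup 1 only, 0 genes in pup 3 only, and Slc17a7 and Chat had 0 counts in both. Fewer protein-coding genes of any kind had a TPM above 0 in pup 3. A gene at 0 took rank 11583 among them in pup 1 and rank 9925 in pup 3. Over all listed transcripts, GABA synthesis held the largest part of the summed TPM of the 10 genes, 51.3% in pup 1 and 53.3% in pup 3. The glutamate transporters held 31.1% and 36.3%, glycine uptake 7.64% and 7.55%, and the acetylcholine genes 9.10% and 2.90%. The sums differ in the number of genes behind them, and RNA levels of different genes need not scale with their proteins. They also count the Gad1 form without a coding sequence described below, at 61.69 and 60.42 deposited TPM. Whether GABA synthesis or the glutamate transporters held the larger part depends on counting that form.

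By mean TPM over all transcripts of a gene, the order was Gad1, Slc17a6, Gad2, Slc6a5, Slc5a7, Slc17a8, Slc18a3 and Slc32a1. Neighbours whose pups overlapped, and whose order is therefore not fixed by these libraries, were Gad1 and Slc17a6, Gad2 and Slc6a5, Slc17a8 and Slc18a3, and Slc18a3 and Slc32a1. Slc17a6 stood above Gad2 in both pups by more than the spread, with a difference of 58.3 TPM against a combined SD of 39.6 TPM. The steps from Slc6a5 to Slc5a7 and from Slc5a7 to Slc17a8 also did not overlap, although the differences of 7.53 and 9.12 TPM were close to their combined SDs of 7.01 and 8.92 TPM.

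**Figure D1:**
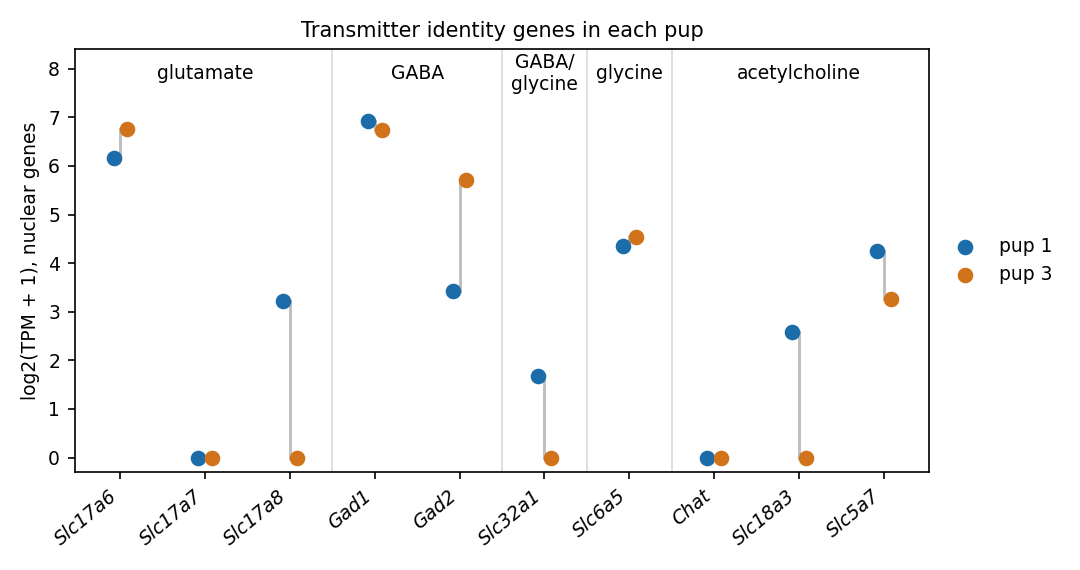
Levels of the 10 transmitter genes as log2(TPM + 1) over nuclear genes, with 1 point per pup (blue, pup 1; orange, pup 3), a grey line joining the pups, and genes grouped by transmitter. Gad1, Slc17a6 and Slc6a5 lie close together in the pups, Gad2 is higher in pup 3, and Slc17a8, Slc32a1 and Slc18a3 fall to 0 counts there.

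Vesicular glutamate transport was carried by Slc17a6 in both pups. Slc17a6 (ENSMUSG00000030500.5, chromosome 7, 51622006 to 51671119, plus strand) had 6138 counts in pup 1 (5985 to 6294) and 8297 in pup 3 (8119 to 8477). That is 70.2 and 108 TPM, a mean of 88.9 ± 26.5 TPM, above 88.5% and 91.7% of protein-coding genes. Pup 3 was 1.53-fold higher, within the 1.87-fold by which the median gene detected in both pups differed in either direction. Slc17a7, the transporter of many cortical and cerebellar granule neurons (ENSMUSG00000070570.4, chromosome 7, 45163949 to 45176142), had 0 counts in both pups. Its floor of 3 counts stood at 0.0510 and 0.0578 TPM. Slc17a8, found in smaller sets of neurons including serotonergic ones (ENSMUSG00000019935.12, chromosome 10, 89574020 to 89621253), had 757 counts in pup 1 (704 to 813), at 8.39 TPM, and 0 in pup 3. Against the floor of 3 counts it was at least 156-fold lower in pup 3. Within pup 1, Slc17a6 and Slc17a8 were thus both present and Slc17a6 was the higher, and in pup 3 Slc17a6 was the only vesicular glutamate transporter with counts.

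GABA synthesis was divided unevenly between the decarboxylases, and the division differed between the pups. Gad1 (ENSMUSG00000070880.6, chromosome 2, 70553072 to 70602014, plus strand) had 6680 counts in pup 1 (6521 to 6842) and 5368 in pup 3 (5225 to 5514). Its levels of 120.03 and 106 TPM, a mean of 113 ± 9.63 TPM, lay above 93.2% and 91.5% of protein-coding genes and differed by 1.13-fold. The pups thus lay close together for Gad1. Gad2 (ENSMUSG00000026787.3, chromosome 2, 22622205 to 22693874, plus strand) had 1149 counts in pup 1 (1084 to 1217) and 4965 in pup 3 (4828 to 5105). At 9.82 and 51.5 TPM it stood above 63.8% of protein-coding genes in pup 1 and above 84.2% in pup 3, a 5.24-fold difference in level. Over all its transcripts, Gad1 exceeded Gad2 in both pups, by 12.2-fold in pup 1 and 2.07-fold in pup 3, which is 2.26 ± 1.73 on the log2(TPM + 1) scale. The decarboxylase genes therefore did not move as a pair. The full coding form Gad1-201, described below, was alone at 28.7 and 22.65 deposited TPM, against 8.7 and 46.12 for Gad2. In pup 3 the order of the decarboxylases thus depends on the Gad1 forms counted.

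Most Gad1 reads were assigned to 2 of the 8 listed transcripts, which differ at the start. Gad1-201 holds the full coding sequence in 17 exons, and Gad1-206, annotated as a processed transcript without a coding sequence, replaces its first exons with another one of 77 bases. The 30 bases across each junction are shown because they are where a read can tell these forms apart; the capitals mark the exon both share.
Gad1-201: acctgcgccctacaaCGTATGATACTTGGT
Gad1-206: cagacctggagaaagCGTATGATACTTGGT
On GRCm38, plus strand, the shared exon begins at chr2:70567186-70567200, and the preceding bases lie at chr2:70563896-70563910 in Gad1-201 and at chr2:70566439-70566453 in Gad1-206. The forms share 2919 bases, 97.4% of Gad1-206, so most reads fit both, and the split is the quantifier's estimate, with no count of reads per junction in the tables. Gad1-206 took 58.04% of the Gad1 TPM in pup 1 and 63.39% in pup 3, and Gad1-201 took 27.00% and 23.77%. Together they took 85.04% and 87.16%. The quantifier's own standard deviation was 244 and 189 counts for Gad1-206, on 4182 and 3570 counts, and 270 and 211 counts for Gad1-201, on 2186 and 1504 counts. Both pups gave the same order of these forms, and the difference between the forms was several times these deviations. The deviations cover the assignment of reads alone. How evenly reads covered the start of the transcripts, where these forms differ, was not tested. Only 77 bases of Gad1-206 and 2 bases of Gad1-201 lie in no other listed transcript.

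Gad1 is also known for splice forms of the immature brain that carry an extra exon with a stop codon, which ends the reading frame early. The start of that exon is printed up to its stop codon, in capitals, because the listed transcripts that hold these bases had counts in 1 pup only.
Gad1 stop exon: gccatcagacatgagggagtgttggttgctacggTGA
It lies at chr2:70584420-70584456 on the plus strand of GRCm38. The transcripts with these bases, Gad1-203, Gad1-205 and Gad1-207, had 0 counts in pup 1 and 268 counts in pup 3. All of them were assigned to Gad1-205 and made up 8.60% of the Gad1 TPM and 5.00% of the Gad1 counts. Gad1-203, which alone has the exon as an internal one of 80 bases, had 0 counts in both pups. In Gad1-205 it is the start of a last exon of 702 bases. Of Gad1-205, 825 bases lie in no other listed transcript, so its counts need not cover the printed bases. Gad1-202, a shorter coding form with a start of its own, went the other way, with 282 counts (10.91% of the Gad1 TPM) in pup 1 and 0 in pup 3. Gad1-204 was at 4.05% and 4.23%. Gad1-202 and Gad1-205 thus had counts in 1 pup each, Gad1-204 in both, and the major forms kept their order.

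**Figure D2:**
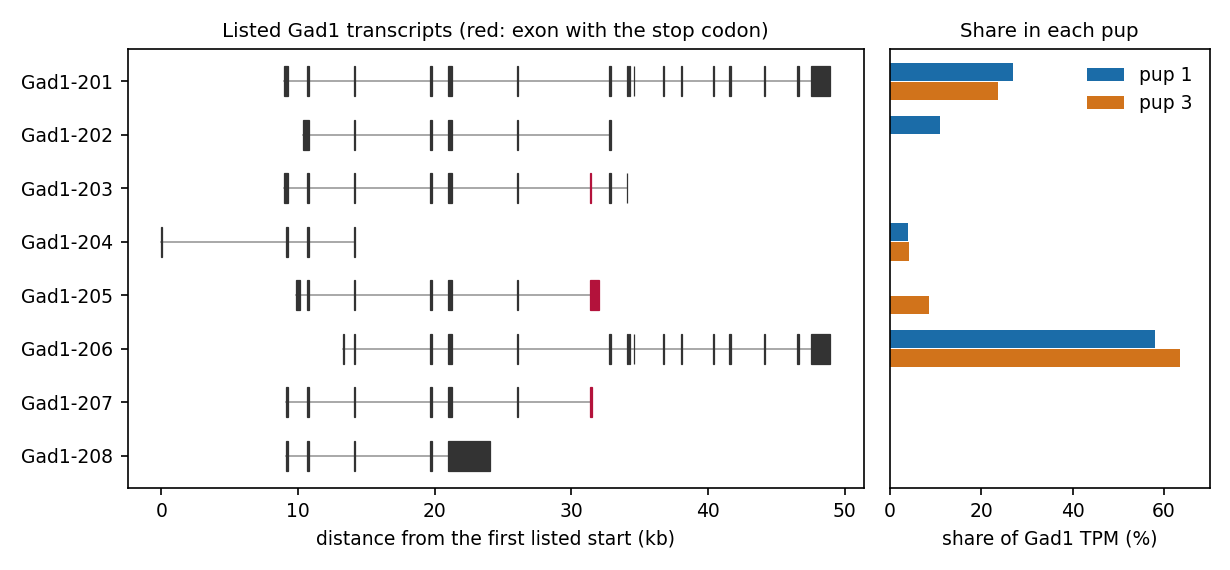
Left, exons of the 8 listed Gad1 transcripts against the distance in kb from the first listed start, with the exon that holds the stop codon in red. Right, the percent of the Gad1 TPM that each transcript took in each pup: Gad1-206 leads at 58.04% and 63.39%, and Gad1-201 follows. Gad1-205, whose last exon begins with the stop exon bases, appears in pup 3 alone at 8.60%.

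The other members had little or no choice of transcripts. Gad2-201 took 100% of the Gad2 TPM in pup 1 and 92.70% in pup 3. There the short processed transcript Gad2-202 had 42.7 counts with a deviation of 20.04 counts. Slc6a5-201 took 100% and 94.88%. All counts of Slc17a8 in pup 1 went to Slc17a8-201, and Slc17a6, Slc32a1, Slc18a3 and Slc5a7 have 1 listed transcript each.

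The vesicular carrier of the inhibitory transmitters was far lower than the genes of GABA synthesis and glycine uptake. Slc32a1 (ENSMUSG00000037771.11, chromosome 2, 158610767 to 158615748, plus strand) had 122 counts in pup 1 (101 to 146), at 2.18 TPM, and 0 counts in pup 3, where the floor of 3 counts is 0.0609 TPM. Pup 3 was therefore at least 35.8-fold lower. In pup 1 the summed decarboxylases were 59.6-fold higher than Slc32a1, and in pup 3, against that floor of counts, at least 2594-fold higher. Both folds count Gad1-206, the form without a coding sequence, at 61.69 and 60.42 deposited TPM, and would be smaller without it. The full coding form Gad1-201 alone was at 28.7 and 22.65 deposited TPM, against 1.93 and 0 for Slc32a1. Slc6a5, the other gene of inhibitory neurons that rely on this carrier, was 8.87-fold higher than Slc32a1 in pup 1 and at least 368-fold higher in pup 3. The glutamate transporters together exceeded it by 36.1-fold in pup 1 and at least 1768-fold in pup 3, or 5.70 ± 1.50 on the log2(TPM + 1) scale. Each of these ratios put Slc32a1 as the lower in both pups. The antisense gene Gm14205 shares 697 exon bases with Slc32a1, with no strand setting stated in the sources used here, but Gm14205 had 0 counts in both pups.

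The glycine transporter gene Slc6a5 was even between the pups. Slc6a5 (ENSMUSG00000039728.10, chromosome 7, 49910146 to 49963856, plus strand) had 2789 counts in pup 1 (2686 to 2894) and 2750 in pup 3 (2648 to 2855). Its levels of 19.3 and 22.4 TPM, a mean of 20.8 ± 2.16 TPM, differed by 1.16-fold. Slc6a5 and Gad1 were the members with the smallest differences between pups, and which of them was the smaller depended on the scaling.

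The cholinergic genes were split: the choline transporter was seen in both pups, the vesicular transporter in 1 and the synthesising enzyme in neither. Chat (ENSMUSG00000021919.7, chromosome 14, 32408203 to 32465989, minus strand) had 0 counts in both, with floors of 0.0534 and 0.0606 TPM. Slc18a3 (ENSMUSG00000100241.1, chromosome 14, 32462438 to 32464850, minus strand) had 239 counts in pup 1 (209.7 to 271), at 4.98 TPM, and 0 in pup 3, at least 70.2-fold lower. Slc5a7 (ENSMUSG00000023945.6, chromosome 17, 54273590 to 54299034, minus strand) had 1897 counts in pup 1 (1813 to 1984) and 798 in pup 3 (744 to 855). At 18.03 and 8.61 TPM, a mean of 13.3 ± 6.66 TPM, it was 2.09-fold lower in pup 3. Slc5a7 was the cholinergic gene with the most counts in each pup, and none of the 3 genes was higher in pup 3. Summed over the 3 genes, pup 1 had 23.01 TPM and pup 3 had 8.61 TPM.

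Slc18a3 and Chat share a locus in which the transporter sits inside the enzyme gene. The single exon of Slc18a3 lies within the first intron of Chat (chromosome 14, 32460914 to 32465806) on the same strand, and the genes share 0 exon bases. An unspliced Chat transcript would also cover this exon. Chat-201 has 16 exons in M21, where it is 2858 bases long, against 2810 bases as quantified. It had 0 counts in both pups, and Slc18a3 had 239 in pup 1. Whether those 239 came from unspliced Chat RNA was not tested. The antisense gene Gm2990, which overlaps Chat without sharing exon bases, had 436 counts in pup 1, at 20.8 TPM, and 0 in pup 3.

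Differences between the pups were then set beside those of all genes. Of the 8 members with at least 50 counts in a library, 3 were past 4-fold on the log2(TPM + 1) scale, against 40.7% of 12300 nuclear genes that met the same count. Gad2 was the 1 higher in pup 3, where the background was 16.7%, and Slc17a8 and Slc18a3 were the 2 lower, where it was 24.0%. The members' share is close to the background, and their median difference in either direction was 2.51-fold against 2.82-fold for all genes tested. The log2 differences, pup 3 minus pup 1, were 2.28 for Gad2, 0.61 for Slc17a6, 0.20 for Slc6a5 and -0.17 for Gad1. They were -0.99 for Slc5a7, -1.67 for Slc32a1, -2.58 for Slc18a3 and -3.23 for Slc17a8. Against these, the median of the 8931 genes detected in both pups was 0.12 and moved between 0.03 and 0.19 across scalings. The direction of no member with counts in both pups turned under the alternatives tried. For Slc17a8, Slc32a1 and Slc18a3, with 0 counts in pup 3, no scaling or pseudocount could turn it. The count of 3 depends on the pseudocount, since 4 members passed with 0.1 TPM and 0 with 5 TPM; Slc32a1 was the member added, being at least 35.8-fold lower but at a low level. With FPKM 2 members passed, without Slc18a3.

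**Figure D3:**
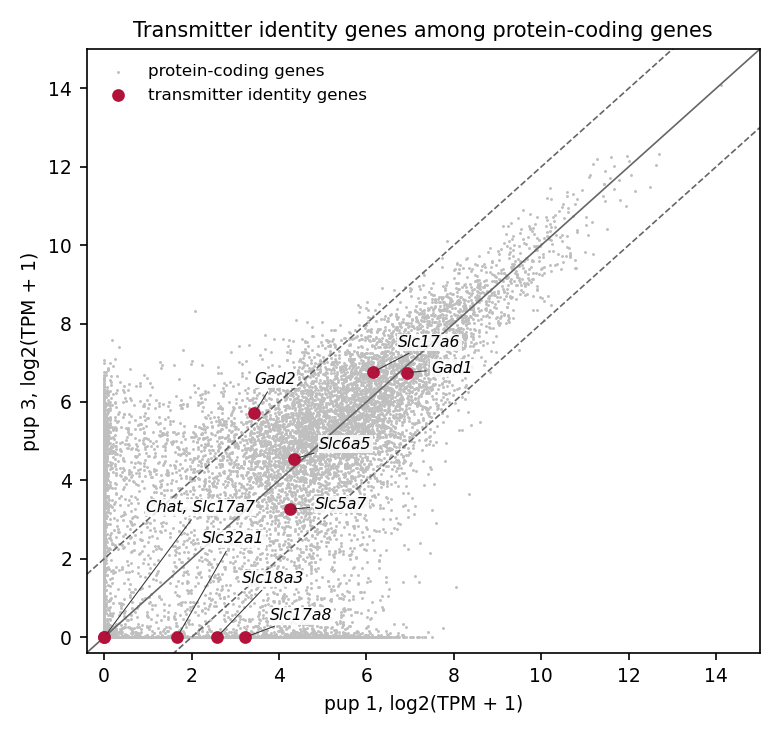
Protein-coding genes (grey) and the 10 transmitter genes (red) by log2(TPM + 1) in pup 1 and pup 3, with the line of equal levels and dashed lines at a 4-fold difference. Gad2 lies above the upper dashed line, Slc17a8 and Slc18a3 below the lower one at 0 in pup 3, and Gad1, Slc17a6 and Slc6a5 near the line of equal levels.

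The members missing from pup 3 were at levels where many genes were missing. Slc32a1, at 2.18 TPM in pup 1, belongs to the protein-coding genes at 1 to 3 TPM there, of which 44.8% (311 of 694) had fewer than 5 counts in pup 3. Slc18a3, Slc17a8 and Gad2 were at 3 to 10 TPM in pup 1, where the share was 37.3% (551 of 1477), and of these members Gad2 was the 1 detected in pup 3. Slc5a7 and Slc6a5, at 10 to 30 TPM, were detected in pup 3, where 30.5% of 3046 such genes were not. In the other direction, of genes at 3 to 10 TPM in pup 3, 19.8% of 1013 were not detected in pup 1. A gene at the level of Slc32a1, Slc17a8 or Slc18a3 was thus often listed at 0 in 1 library, and their 0 in pup 3 does not show that the pups differed in them.

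The members that lacked counts tended to have GC-rich transcripts. GC content of the longest coding transcript was 61.9% for Slc32a1, 61.2% for Slc18a3, 58.5% for Slc17a7 and 54.3% for Chat, which are 4 of the 5 members not detected in both pups. It was 44.0% for Slc17a8, the fifth, and 48.4% for Gad1, 48.2% for Slc6a5, 44.1% for Gad2, 42.9% for Slc17a6 and 40.8% for Slc5a7, against a median of 49.1% over protein-coding genes. Protein-coding genes at 1 to 10 TPM in pup 1 were grouped by GC content. Not detected in pup 3 were 35.2% below 45%, 39.9% at 45 to 50%, 38.9% at 50 to 55% and 44.3% from 55%. The outer bands thus held the lowest and highest share, and the middle bands did not rise in order. In the other direction the shares showed no order by GC content, at 19.9% below 45%, 24.4% at 45 to 50%, 18.9% at 50 to 55% and 22.4% from 55%. The part of GC content in the missing members was not tested.

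Other genes of the same transmitters, taken from lists, were mostly seen in both pups for the amino acid transmitters. The share to set beside each list is the 37.8% of protein-coding genes detected in both pups. Of 14 genes of glutamate supply and clearance 12 were detected in both, led by the glial uptake carrier Slc1a3 at 532 and 281 TPM. Of 6 genes of GABA uptake and breakdown 4 were, with the GABA transaminase Abat at 66.8 and 114 TPM. Of 7 genes of glycine supply, uptake and breakdown 5 were, with the carrier Slc6a9, GlyT1, at 99.8 and 39.1 TPM, above Slc6a5 in both pups. Slc6a9 and Abat were therefore at levels far above Slc32a1 in both pups. Slc1a3 and Slc6a9 are also expressed by glia, and Slc6a13, the highest of the GABA list by its mean, at 85.2 and 107 TPM, also by meningeal cells, so these lists are not neuronal alone. Of the meningeal and vascular markers 7 of 8 were detected in both pups, with summed levels of 2797 and 5085 TPM, and of the astrocyte and radial glia markers 9 of 10, with 8553 and 7585 TPM. Their part in the levels of these carriers was not tested.

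Of 8 genes of acetylcholine breakdown and choline supply 4 were detected in both pups, beside 37.8% of protein-coding genes, 1 in pup 1 only and 3 in neither. Of 4 tested, 3 were past 4-fold higher in pup 3, beside 16.7% of all genes tested. Ache, the enzyme that cleaves acetylcholine, was at 17.9 and 91.4 TPM in pup 1 and pup 3, the choline transporter-like gene Slc44a2 at 0.847 and 58.5 TPM, and the choline kinase Chkb at 3.01 and 131 TPM. These genes are expressed well beyond cholinergic neurons. Of 10 transcription factors of cholinergic and motor neurons 2 were detected in both, beside the same 37.8%. Isl1, a factor of motor neurons, reached 28.9 TPM in pup 1 and had 0 counts in pup 3. Of the 4 factors of this list tested, 1 was past 4-fold higher and 1 lower in pup 3, and they gave no common direction between the pups.

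Monoamine genes, whose products are loaded by another vesicular transporter, were detected in pup 1 for 5 of 10 listed. Of the 10, 1 was detected in both pups, beside 37.8% of protein-coding genes. In pup 1 alone 4 were detected, in pup 3 alone 1, and 4 had no detection. Among all protein-coding genes, too, fewer had a TPM above 0 in pup 3 than in pup 1. Of 5 tested, 4 were past 4-fold lower in pup 3, beside 24.0% of all genes tested. Tph2, the enzyme of brain serotonin synthesis, was at 44.0 and 13.7 TPM. The vesicular monoamine transporter Slc18a2 was at 29.1 TPM, tyrosine hydroxylase Th at 22.99 TPM and the serotonin transporter Slc6a4 at 8.49 TPM in pup 1, each with 0 counts in pup 3. The decarboxylase Ddc was at 24.01 and 0.179 TPM, and Dbh, which makes noradrenaline, had 0 counts in pup 1 and 5 in pup 3. Slc17a8, the glutamate transporter also found in serotonergic neurons, was seen in pup 1 only, and Tph2 had 2303 counts in pup 1 and 632 in pup 3. Any link between Slc17a8 and the monoamine genes was not tested.

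The shared machinery of vesicle filling was present in both pups. Of 9 genes 6 were detected in both, beside 37.8% of protein-coding genes. The highest were the proton pump subunits Atp6v1b2 at 216 and 280.4 TPM, Atp6v1a at 167 and 184 TPM and Atp6v0a1 at 122 and 168 TPM. These pump subunits were above every one of the 10 members in both pups. Of 12 transcription factors of excitatory neurons 5 were detected in both, near the 37.8% of protein-coding genes. They were led by Ebf1 at 114 and 115 TPM and Neurod1 at 45.8 and 43.02 TPM. Of the 8 tested, 2 were past 4-fold higher and 0 lower in pup 3, beside 16.7% and 24.0% of all genes tested. Of 12 factors of inhibitory neurons 4 were detected in both, also near 37.8%. Tfap2b was at 65.01 and 13.5 TPM, Gata3 at 14.8 and 41.6 TPM and Gata2 at 16.8 and 32.6 TPM. Of the 8 inhibitory factors tested, 4 were past 4-fold lower and 1 higher in pup 3, beside the same 24.0% and 16.7%. The excitatory and inhibitory factors were not tested against each other.

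**Figure D4:**
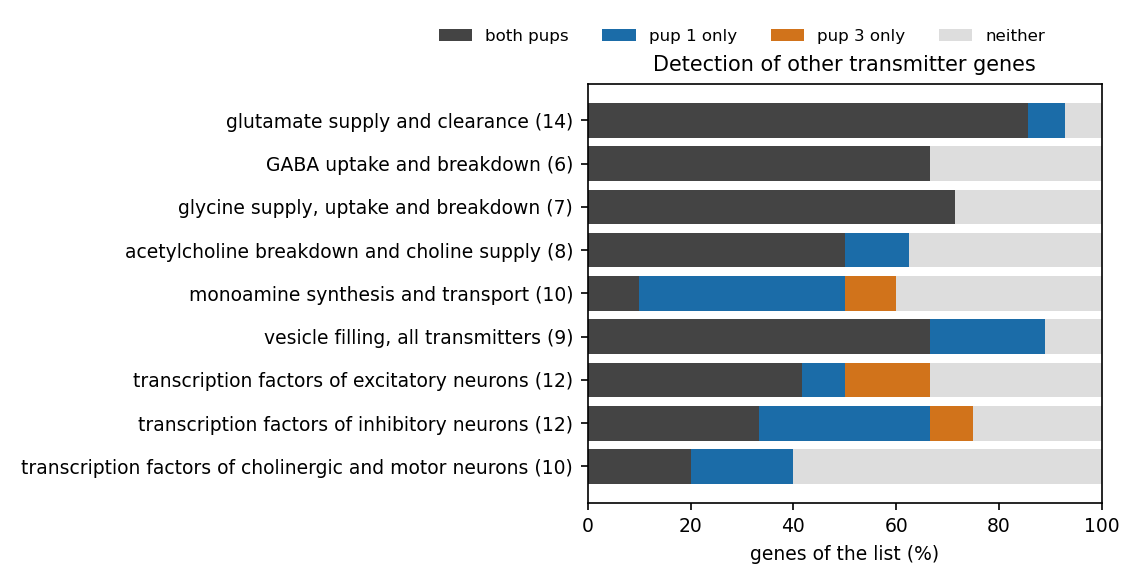
Share of the genes of each list, in percent, detected in both pups, in pup 1 only, in pup 3 only or in neither, with the number of genes in brackets. The lists for glutamate, GABA and glycine handling and vesicle filling were mostly detected in both pups, whereas 1 of the 10 monoamine genes was, beside 37.8% of protein-coding genes.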

How the data were processed

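The authors deposited a gene table and a transcript table per library, made on mm10 with annotation M4, per the deposited notes. Per the file headers, which have the column layout of RSEM, the tables give expected counts. The deposited TPM values are relative to all entries, also spike-ins and mitochondrial genes. The deposited FPKM values are per length and per assigned read. Each transcript has its percent of the gene's TPM, per the file headers. The bounds of the quantifier's TPM intervals, a score in the deposited tables, were not used. For aligner, versions and strand setting: not given in the sources used here.

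Of 43346 mouse identifiers, 42462 (98.0%) matched GENCODE M21 on GRCm38, the same assembly, by stable identifier. Symbols, exons, 1-based coordinates and sequences came from it. TPM was rescaled over nuclear genes, which held 88.6% (pup 1) and 89.6% (pup 3) of the deposited TPM. A pseudocount of 1 TPM was added before log2, which understates differences of low genes. A fold of 4 was counted at 50 counts or more in a library. A fold against 0 counts was computed against 3 counts in that library at the gene's listed effective length. Scaling factors of edgeR 4.0.16 and DESeq2 1.42.0 on rounded expected counts served as alternatives (R 4.3.3); other steps used Python 3.11.15. The code of the fold count was checked on simulated data with Poisson counting error alone. Such data leave out other variation between libraries, so they do not show how often these folds arise without a difference between pups.

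All 10 members are named, with the 3 highest genes of each of 17 context lists (a few of them left out of the text), the monoamine genes detected in either pup, and transcripts with at least 10% of a gene's TPM. The minor Gad1, Gad2 and Slc6a5 transcripts, the overlapping genes and Gad1-ps were named after their values were seen. Members and lists were chosen with earlier results of these data known. Other alternatives were detection limits, folds, minimum counts, deposited TPM, FPKM, CPM, the ERCC total and each library alone.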

Additional observations from a re-analysis of the deposited data

How the results depend on the processing

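With 2 libraries and no second group, every value describes these animals, and 13 pg of input limits what low counts can show. The 5 members detected in both pups stayed 5 under the 4 other detection and depth settings. With 1 library alone the count ran from 5 (pup 3) to 8 (pup 1), and pup 3 also had fewer protein-coding genes above 0 TPM. The 3 members past 4-fold became 1 at 8-fold (background 28.2%) and 0 with a pseudocount of 5 (background 23.4%), and ran from 2 to 4 under the other settings; the pseudocounts for this count were chosen after seeing the data. A low denominator made the ratios to Slc32a1 depend on the pseudocount by construction. The glutamate ratio of 5.70 was 7.59 with a pseudocount of 0.1 and 4.02 with 5, and 4.65 to 6.76 with each library alone. The Slc6a5 ratio of 3.61 was 5.45 and 2.11 with these pseudocounts, 5.40 with CPM, which ignores length, and 2.68 to 4.55 with each library alone. The ratio of Gad1 to Gad2 moved by less than its SD under the settings tried and ran from 1.03 to 3.48 with each library alone. No direction of a member with counts in both pups turned, and for those with 0 counts in pup 3 none could. By counts in place of TPM, Gad1-206 took 62.6% and 66.5% of Gad1, Gad1-201 32.7% and 28.0%, Gad1-202 4.22% in pup 1 and Gad1-205 5.00% in pup 3. Between the pups Gad1 differed less than Slc6a5 under the values reported, and more under edgeR's factors (-0.25 against 0.12) and DESeq2's (-0.27 against 0.10). No paired analysis was possible because there is 1 group.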
